A study of Mus musculus with 4 samples.

Results

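The cell division genes are 42 genes that work in S phase and in mitosis. They were chosen as a list of symbols, with earlier results of these data known. All 42 were found among the 32286 features of the gene tables. A dividing cell first copies its chromosomes in S phase and then separates the copies on a microtubule spindle in mitosis, and most of these genes are transcribed in waves that follow this order. Neurons of the mature cortex have left the cell cycle. In the young brain, oligodendrocyte precursor cells (OPC), which give rise to the myelinating oligodendrocytes, and the progenitors and early neuroblasts of the neurogenic niches go on dividing, while astrocytes and microglia divide rarely. By role, 9 of the genes serve replication licensing and DNA synthesis, 5 S phase repair, cohesion and chromatin, 6 are cyclins and kinases, 2 are Top2a and Mki67, 6 serve the kinetochore and spindle checkpoint, 10 are spindle motors and microtubule proteins, and 4 serve the cell cortex and cytokinesis.

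FACS-sorted nuclei of cortex plus hippocampus were profiled by single-nucleus RNA-seq at 5 weeks of age, with 1 library per mouse and 2 mice per genotype. All 4 mice carried the Sel1L flox/flox allele, and SEL1L is the adaptor of the SEL1L-HRD1 complex of ER-associated degradation. Controls (fl/fl) had this allele alone, whereas SynCre mice also expressed Cre under the Synapsin I promoter, which is active in neurons. The genotype comparison asked how the cell division genes of glia and progenitors differed between mice with and without the neuronal deletion.

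The libraries held 11116 and 7864 kept nuclei in fl/fl and 7538 and 6805 in SynCre, 33323 in all, with a median of 7244.5 to 8397 UMIs (unique molecular identifiers, that is counted molecules) per nucleus. Levels are given as CPM, the UMIs of a gene scaled to a common total of UMIs in the same class of nuclei in the same library. Classes were called X-like from marker genes, and neither the 42 genes nor 123 further listed cell cycle genes entered the clustering. The labels were taken as given. Sel1l RNA was not lower in SynCre (97.1 and 90 CPM over all kept nuclei in fl/fl against 155 and 128 CPM in SynCre), and library fl/fl 1 held 409 Cre UMIs, fl/fl 2 held 0, and the SynCre libraries held 236 and 221. Among kept nuclei, 102 barcodes occurred in more than 1 library. Nothing ties same-numbered mice of the genotypes to each other, and p-values measure only the spread between these mice. Below, 4 values in a row are for fl/fl 1, fl/fl 2, SynCre 1 and SynCre 2.

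Promoters are shown first, since many of these genes were detected together in the same nuclei. Sequence before the transcription start was found in RefSeq (mouse build GRCm38.p6) for 35 of the 42 genes. In the 300 bases around the start, on either strand, the motif TTTGAA, the core of the cell cycle homology region of mitotic genes, was present in 19 of the 35 promoters (54.3%) and in 16.8% of 20595 mouse promoters. The motif CCAAT was present in 27 (77.1%) and in 38.2% of all. The motif TTCCCGC, a form of the E2F site of S phase genes, was present in 3 (8.57%) and in 5.58% of all. In the 250 bases before the start alone, TTTGAA was present in 8 (22.9%) of the 35 against 15.3% of all, and CCAAT in 27 (77.1%) against 35.1%. The 250 bases before the start are printed for Top2a, Mki67, Kif11 and Kif15, which fell in SynCre OPC-like nuclei, for Prc1, which was not called there, and for Anln, whose UMIs lay mostly in oligodendrocytes. Capitals mark the first and second of these motifs, read on either strand.
Top2a, chr11:99024190-99024439, minus strand: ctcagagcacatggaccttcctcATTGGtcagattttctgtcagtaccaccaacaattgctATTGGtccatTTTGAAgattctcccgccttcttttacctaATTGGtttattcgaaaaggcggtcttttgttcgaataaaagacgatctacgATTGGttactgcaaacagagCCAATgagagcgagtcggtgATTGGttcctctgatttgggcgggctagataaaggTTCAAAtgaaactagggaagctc
Mki67, chr7:135716380-135716629, minus strand: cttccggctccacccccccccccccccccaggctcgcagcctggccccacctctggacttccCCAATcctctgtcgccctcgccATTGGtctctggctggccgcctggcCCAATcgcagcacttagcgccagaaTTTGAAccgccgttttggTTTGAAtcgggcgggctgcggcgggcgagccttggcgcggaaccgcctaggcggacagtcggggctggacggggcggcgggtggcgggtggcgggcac
Kif11, chr19:37376132-37376381, plus strand: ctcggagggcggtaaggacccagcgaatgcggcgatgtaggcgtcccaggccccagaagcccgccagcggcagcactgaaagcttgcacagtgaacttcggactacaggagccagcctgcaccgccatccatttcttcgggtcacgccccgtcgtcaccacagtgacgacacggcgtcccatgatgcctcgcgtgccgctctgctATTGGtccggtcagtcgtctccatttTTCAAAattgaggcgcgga
Kif15, chr9:122950831-122951080, plus strand: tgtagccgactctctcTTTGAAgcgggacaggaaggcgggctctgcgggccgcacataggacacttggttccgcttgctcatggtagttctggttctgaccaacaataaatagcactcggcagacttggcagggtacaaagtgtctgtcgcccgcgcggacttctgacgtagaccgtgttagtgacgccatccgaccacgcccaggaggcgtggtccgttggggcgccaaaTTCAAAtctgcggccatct
Prc1, chr7:80294201-80294450, plus strand: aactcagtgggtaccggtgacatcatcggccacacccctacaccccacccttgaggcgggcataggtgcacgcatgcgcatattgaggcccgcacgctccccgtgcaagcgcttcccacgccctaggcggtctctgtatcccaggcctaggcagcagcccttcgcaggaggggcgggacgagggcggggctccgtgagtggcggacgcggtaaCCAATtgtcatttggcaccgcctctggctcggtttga
Anln, chr9:22389207-22389456, minus strand: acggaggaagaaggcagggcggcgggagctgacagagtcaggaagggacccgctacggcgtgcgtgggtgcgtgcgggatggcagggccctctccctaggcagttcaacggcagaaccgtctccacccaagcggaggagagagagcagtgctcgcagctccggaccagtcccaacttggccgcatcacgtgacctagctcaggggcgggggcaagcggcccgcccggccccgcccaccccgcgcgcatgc
The Top2a sequence held 2 matches to TTTGAA and 6 to CCAAT, and the Mki67 sequence held 2 and 3. The Kif11 sequence held 1 of each, the Kif15 sequence 2 and 0, the Prc1 sequence 0 and 1, and the Anln sequence 0 of either. The printed stretch stops at the start. In the 300 bases, Prc1 also had a TTTGAA match at -5, which runs past the printed end. Anln had matches to TTTGAA at 21 and 28, after the start. These are matches of letters and were not tested as binding sites.

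For 38 of the 42 genes the highest level over the 14 classes lay in a cluster of 204 nuclei that was left without a class name because cell division genes led it. Top2a, Knl1 and Cenpf stood among its 10 leading genes, beside Dlx1 and Dlx6os1, and it is called the Top2a/Dlx1-led cluster. Of the marker lists, 5 of 6 inhibitory neuron markers (Gad1, Gad2, Erbb4, Dlx6os1 and Dlx1) and 4 of 10 neuroblast markers (Dcx, Sox11, Sox4 and Igfbpl1) passed the share and level used in naming, and all had UMIs in it. Top2a, the topoisomerase that untangles chromosome copies, was at 278, 562, 681 and 331 CPM there, and the next highest class, OPC-like nuclei, was at 29.2 CPM over all libraries, so the ranges did not overlap. Mki67, which encodes the proliferation antigen Ki-67, was at 179 CPM over the libraries in that cluster, with 175 to 196 CPM in each. Since these genes led the cluster, the levels are a description without a test.

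**Figure D1:**
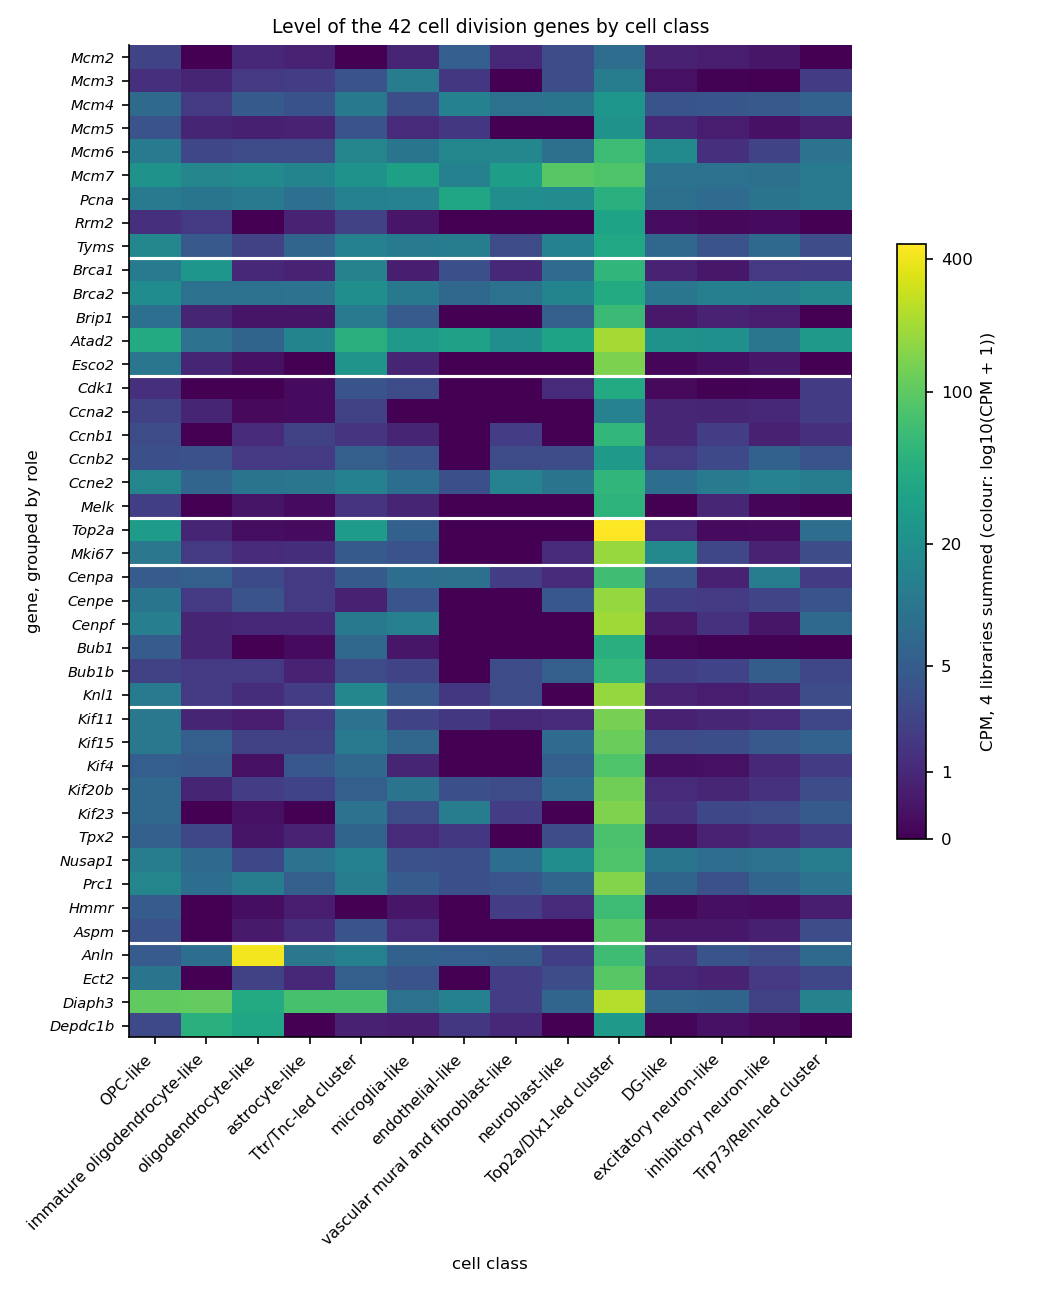
Level of each of the 42 genes (lines, grouped by role) in each of the 14 classes of nuclei (columns), as CPM over the 4 libraries summed, with colour on a log10(CPM + 1) scale. The Top2a/Dlx1-led cluster is the brightest column for 38 genes, and Anln is brightest in oligodendrocyte-like nuclei (421 CPM).

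The 4 exceptions had other leading classes. Mcm7, a subunit of the replicative helicase, was at 88.0, 85.2, 86.0 and 130 CPM in neuroblast-like nuclei, which overlapped its range of 67.9 to 120 CPM in the Top2a/Dlx1-led cluster. Mcm3, another subunit, was at 12.5 CPM in microglia-like nuclei and 12.1 CPM in the Top2a/Dlx1-led cluster, again with overlapping libraries. Anln, which encodes the actin-binding protein anillin and is also expressed by myelinating oligodendrocytes, was at 421, 370, 496 and 517 CPM in oligodendrocyte-like nuclei. These nuclei held 81.7% of all Anln UMIs, and the gene was detected in 57.5% of them. Depdc1b was at 48.1 CPM in immature oligodendrocyte-like and 37.4 CPM in oligodendrocyte-like nuclei.

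How far a gene was shared by the same nuclei differed widely within the set. For Top2a, 89.1% of UMIs lay in nuclei that also held 5 or more other members, and for the checkpoint kinase gene Bub1 79.7% did. The cohesin acetyltransferase gene Esco2 (67.4%) and Cdk1, the kinase that drives mitosis (55.6%), followed. At the other end, 2.73% of Mcm7 UMIs, 2.96% of those of the replication clamp gene Pcna and 1.61% of Anln UMIs lay in such nuclei. Mki67 stood low among the mitotic genes at 16%, and most of its UMIs lay in the neuron classes described below.

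**Figure D2:**
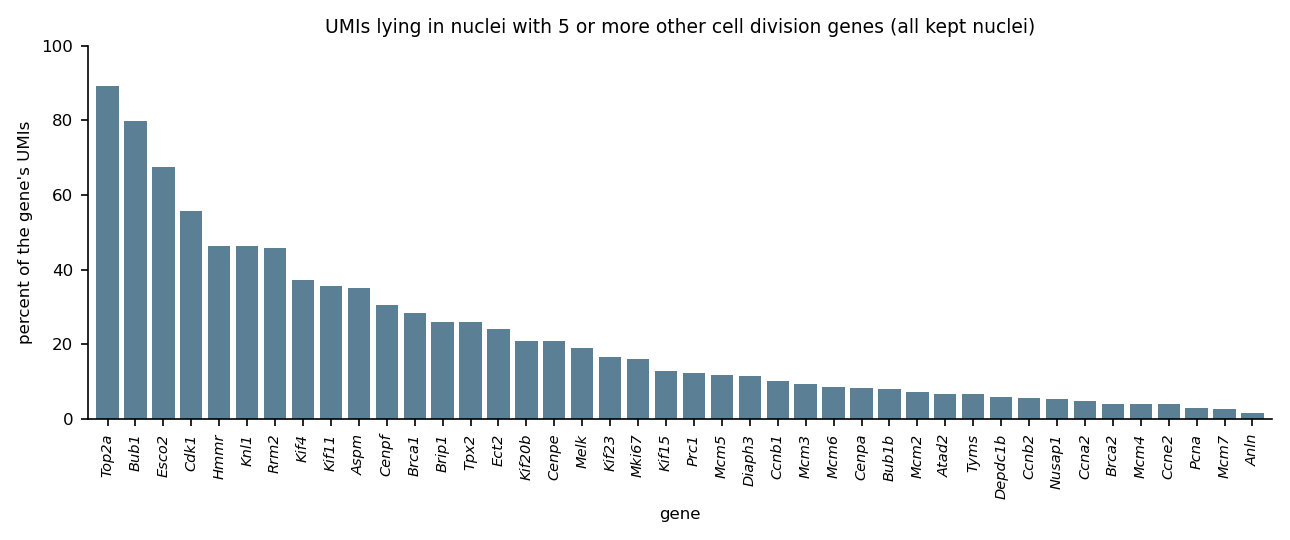
Percent of each gene's UMIs that lay in nuclei with 5 or more other cell division genes, over all kept nuclei of the 4 libraries (1 bar per gene). Top2a (89.1%) and Bub1 (79.7%) are highest, and Mcm7 (2.73%), Pcna (2.96%) and Anln (1.61%) are among the low bars.

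A nucleus with 8 or more of the 42 genes was rare, and 97 were found, 31, 29, 21 and 16 by library. Of these, 81 held a Top2a UMI, 61 a Mki67 UMI and 53 both. OPC-like nuclei had 26 and the Top2a/Dlx1-led cluster 44. In OPC-like nuclei, 14 of 396 (3.54%, 95% Wilson interval 2.12 to 5.85%) and 12 of 355 (3.38%, 1.94 to 5.81%) nuclei of fl/fl held 8 or more. In SynCre 0 of 274 and 0 of 228 did, with Wilson intervals of up to 1.38% and 1.66%. These intervals cover counting error only. Within OPC-like nuclei, such nuclei were thus found in both fl/fl libraries and in neither SynCre library. In the Top2a/Dlx1-led cluster they made up 19.0, 23.5, 21.9 and 23.3% of nuclei, with the genotypes overlapping.

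The most members in 1 OPC-like nucleus were 25, 31, 4 and 6. Nuclei with 5 or more numbered 22, 21, 0 and 1. At the low end the libraries were closer, since 37.9, 40.6, 44.9 and 42.5% of OPC-like nuclei held no member at all. The 26 nuclei with 8 or more held a median of 18 members, 10 of the mitosis list of 22 genes and 5 of the S phase groups, and 22 of them had a Top2a UMI. Their median depth was 5266 UMIs against 3819 over the class, and median depth per library was 3880.5, 3638, 3815 and 3966 UMIs, with the genotypes overlapping.

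**Figure D3:**
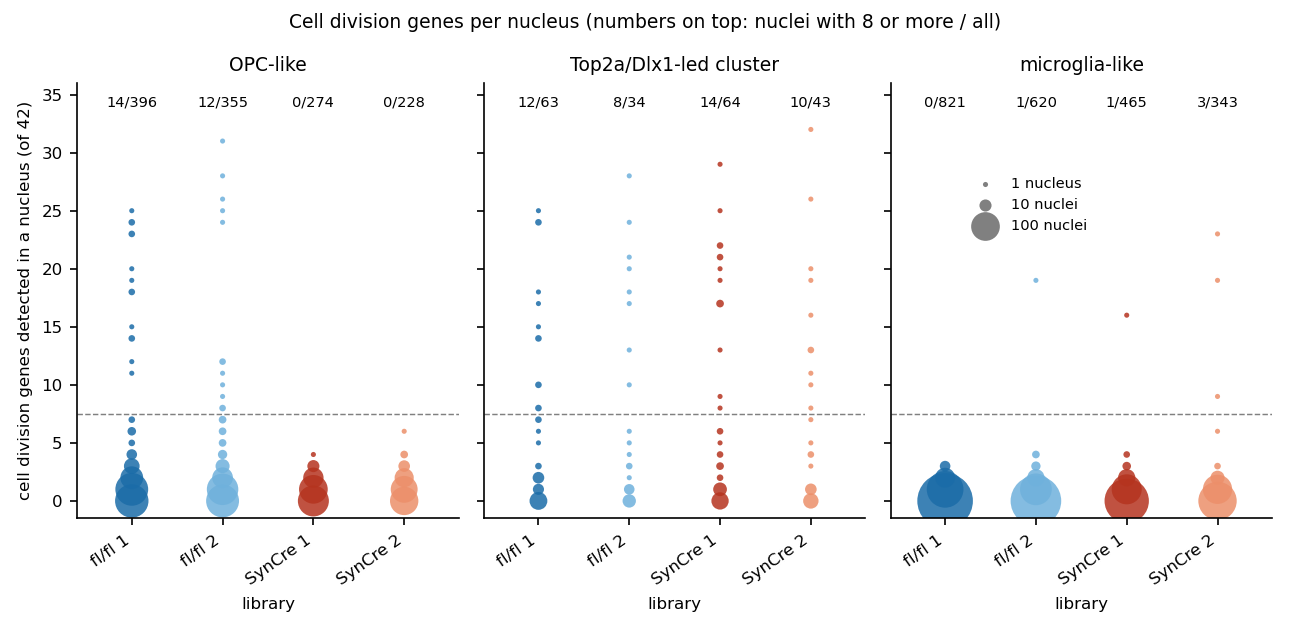
Number of the 42 cell division genes detected in each nucleus (vertical axis), by library, in OPC-like nuclei, the Top2a/Dlx1-led cluster and microglia-like nuclei, with spot area growing with the number of nuclei and a dashed line below 8 genes. OPC-like nuclei above the line number 14 and 12 in fl/fl and 0 and 0 in SynCre, and the Top2a/Dlx1-led cluster has nuclei above it in all 4 libraries.

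With each nucleus thinned to 2000 UMIs and shallower nuclei left out, the share of OPC-like nuclei with 2 or more members was 11.1% (43 of 389 nuclei, 8.31 to 14.6%), 14.8% (49 of 330, 11.4 to 19.1%), 5.28% (14 of 265, 3.17 to 8.67%) and 6.76% (15 of 222, 4.14 to 10.8%). Both SynCre shares lay below both fl/fl shares, by 6.93 percentage points on the means. For 2 or more of the 22 mitosis genes the shares were 3.86, 4.55, 0 and 0%. In no other class listed here did both SynCre shares lie below both fl/fl shares. Astrocyte-like nuclei had 3.33, 5.03, 4.73 and 6.12%, neuroblast-like nuclei 8.99, 14.3, 11.1 and 13.9%, and the Top2a/Dlx1-led cluster 47.1, 45.5, 51.3 and 42.3%. Microglia-like nuclei, with a median of 1835 UMIs, had 5.70 and 6.17% in fl/fl against 8.38 and 7.10% in SynCre. No p is given for these shares, and an exact two-sided permutation test of 2 against 2 mice cannot go below 0.33.

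The genotype comparison in OPC-like nuclei was then made gene by gene on counts summed per library. Over all 20202 genes with at least 1 count, edgeR's quasi-likelihood test with Benjamini-Hochberg adjustment called 20 of the 42 members lower in SynCre and none higher, where 1.22% of all genes were called lower, 1.30% higher and 2.52% in either direction. At an unadjusted p under 0.05, 34 members passed, where 1930 of the 20202 genes did. DESeq2, on the filtered genes, called 4 of 23 members, where 1.33% of those genes were called. The fitted change was below 0 for 41 of the 42, with a median log2 change of -2.62 against -0.02 over all genes. Both SynCre levels lay below both fl/fl levels for 38 of the 42, and for 17.8% of all genes. With edgeR's filter on low counts, 23 members were among the 11180 genes tested and 14 were called lower, where 1.42% of genes were called lower, 2.00% higher and 3.43% in all. This filter keeps a gene that is high enough in either genotype alone, so members such as Top2a (80, 71, 0 and 0 UMIs) passed it through fl/fl only. With at least 10 counts in every library, 5 members were tested and 1 was called lower, where 3.14% of all genes were called. Fewer dividing nuclei and less of these RNAs per dividing nucleus cannot be told apart in summed counts.

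Top2a had the largest fitted fall. It had 80, 71, 0 and 0 UMIs in OPC-like nuclei (46.4 and 52.2 CPM in fl/fl), with an adjusted p of 8.38e-09 in edgeR's quasi-likelihood test. By UMI counts alone it was at least 34.1-fold lower in SynCre (3 counts taken as the floor over the SynCre group). Of its 151 UMIs, 130 lay in the 26 nuclei with 8 or more members. Mki67 had 22, 29, 3 and 0 UMIs, a ratio of 11.5 between fl/fl and SynCre (95% counting interval 3.73 to 57.7) and an adjusted p of 0.00184 in the same test. The groups did not overlap for either gene. Fitted log2 changes of genes with so few SynCre counts depend on the prior count so for them counts and ratios are given here. The "at least" folds and counting intervals, here and below, take each UMI as independent and leave out the spread between nuclei and mice. The UMIs lay together in few nuclei, with Top2a found in 34 and Mki67 in 29 OPC-like nuclei. These limits are therefore too tight and are not bounds on the difference between genotypes.

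In the S phase repair, cohesion and chromatin group all 5 members were called lower, 1 of them, Brca1, only without the filter. Atad2, a chromatin ATPase of S phase, had 106, 82, 15 and 16 UMIs (log2 change -2.02 ± 0.27 SE, adjusted p 1.22e-05, edgeR). Esco2, needed to establish cohesion between sister chromatids, had 27, 26, 0 and 0 UMIs, at least 12-fold lower (adjusted p 3.84e-05, edgeR). The helicase gene Brip1 had 28, 15, 0 and 1 UMIs, a ratio of 29.2 (counting interval 4.96 to 1178, adjusted p 0.000756, edgeR). These 3 showed no overlap between genotypes. The changes of the homologous recombination genes Brca1 and Brca2 were smaller and nearer the threshold. Brca1 had 31, 20, 7 and 4 UMIs (log2 change -1.62 ± 0.47, adjusted p 0.0505 with the filter and 0.0138 without it, edgeR) and Brca2 had 42, 36, 8 and 13 (log2 change -1.31 ± 0.37, adjusted p 0.04, edgeR). A gene on the opposite strand overlaps Brca2, and the strand used in counting is not stated in the sources used here.

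Among the 9 replication genes, 1 was called. Mcm6, a helicase subunit, had 34, 22, 2 and 4 UMIs (log2 change -2.61 ± 0.53, adjusted p 0.00255, edgeR). Mcm7 had 47, 24, 23 and 19 UMIs, a log2 change of -0.18 with an interval of -0.81 to 0.46, and overlaps Cops6 and Ap4m1 on the opposite strand. Pcna had 18, 13, 11 and 16 UMIs and a log2 change of 0.37 with an interval of -0.46 to 1.21, the 1 positive value among the 42. For these 2, then, no fall was detectable, and an Mcm7 fall of more than 0.81 lies outside the interval. Tyms, which makes thymidylate, had 35, 26, 13 and 11 UMIs (log2 change -0.77, adjusted p 0.364, edgeR). Mcm2, Mcm3, Mcm5 and Rrm2 had 2 to 9 UMIs in each fl/fl library and 0 to 2 in each SynCre library, and Mcm4 had 13, 16, 7 and 2. The whole group summed to 99.8, 88.2, 50.9 and 55.5 CPM.

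The 6 cyclins and kinases had adjusted p of 0.16 to 0.971 in edgeR's test without the filter, at summed levels of 33.1, 39.7, 17 and 14.4 CPM. Their counts were low. Cdk1 had 3, 4, 0 and 0 UMIs and Melk, a mitotic kinase gene, 7, 4, 0 and 0. Of the mitotic cyclins, Ccna2 had 6, 4, 0 and 2, Ccnb1 3, 10, 2 and 1, and Ccnb2 8, 3, 3 and 4 UMIs, and the last 2 overlapped between genotypes. Ccne2, the cyclin of S phase entry, had 30, 29, 14 and 7 UMIs (log2 change -0.92, adjusted p 0.286, edgeR). Its SynCre levels lay below those of fl/fl, but the difference did not pass the threshold. Ccna2 and Ccne2 each overlap a gene on the opposite strand.

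The kinetochore and checkpoint genes summed to 58.0, 88.2, 9.82 and 10.3 CPM, and all 6 lay lower in both SynCre libraries. Cenpf, of the outer kinetochore, had 25, 38, 3 and 0 UMIs, a ratio of 14.2 (4.66 to 70.9, adjusted p 0.000463, edgeR). Knl1, the scaffold that recruits the checkpoint, had 31, 25, 3 and 1 UMIs, a ratio of 9.49 (3.51 to 36.1, adjusted p 0.000611). The kinetochore motor gene Cenpe had 24, 22, 2 and 3 UMIs (log2 change -2.59 ± 0.57, adjusted p 0.00585). Bub1, with 6, 20, 0 and 0 UMIs, did not pass the filter and was called without it, at least 5.88-fold lower (adjusted p 0.00012). Cenpa, the centromeric histone, had 9, 10, 3 and 4 UMIs and Bub1b 5, 5, 0 and 2, and neither was called.

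Of the 10 spindle genes, 6 were called lower without the filter, and the group summed to 108, 136, 32.2 and 21.6 CPM. Kif11, the motor that pushes the spindle poles apart, had 33, 22, 0 and 1 UMIs, a ratio of 37.3 (6.42 to 1500, adjusted p 0.000103, edgeR). Kif15, a motor with an overlapping function, had 30, 23, 2 and 1 UMIs, a ratio of 12 (3.88 to 59.9, adjusted p 0.000461), and the midzone motor gene Kif23 had 19, 15, 2 and 0 UMIs, a ratio of 11.5 (2.96 to 99, adjusted p 0.00852). In these 3 genes nearly all UMIs lay in fl/fl. Kif4 (13, 14, 0 and 0), Hmmr (11, 15, 0 and 0) and Aspm (10, 10, 0 and 0) were called only without the filter, at least 6.1-, 5.88- and 4.52-fold lower with adjusted p of 8.19e-05, 0.000134 and 0.00273. Prc1, a midzone bundling protein gene, kept counts in SynCre with 25, 34, 14 and 6 UMIs (log2 change -1.0, adjusted p 0.274), as did Nusap1 with 20, 27, 12 and 6 (log2 change -0.82, adjusted p 0.454). Kif20b had 15, 13, 3 and 4 and Tpx2 11, 12, 3 and 3 UMIs, and neither was called. Kif4, Nusap1 and Prc1 overlap genes on the opposite strand.

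In the cortex and cytokinesis group, Ect2, which is needed for cytokinesis, had 23, 23, 1 and 3 UMIs (log2 change -2.90 ± 0.61, adjusted p 0.00385, edgeR). Depdc1b had 9, 6, 0 and 0 UMIs and was called without the filter, at least 3.39-fold lower (adjusted p 0.0321). Anln had 11, 9, 1 and 4 UMIs and was not called. Diaph3, a formin of the contractile ring, behaved differently. It had 207, 134, 94 and 95 UMIs (120, 98.5, 84.0 and 97.7 CPM), the deepest count of the set in OPC-like nuclei, and a log2 change of -0.27 with an interval of -0.63 to 0.10 (adjusted p 0.627). Only 102 of its 530 UMIs lay in the 26 nuclei with 8 or more members.

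**Figure D4:**
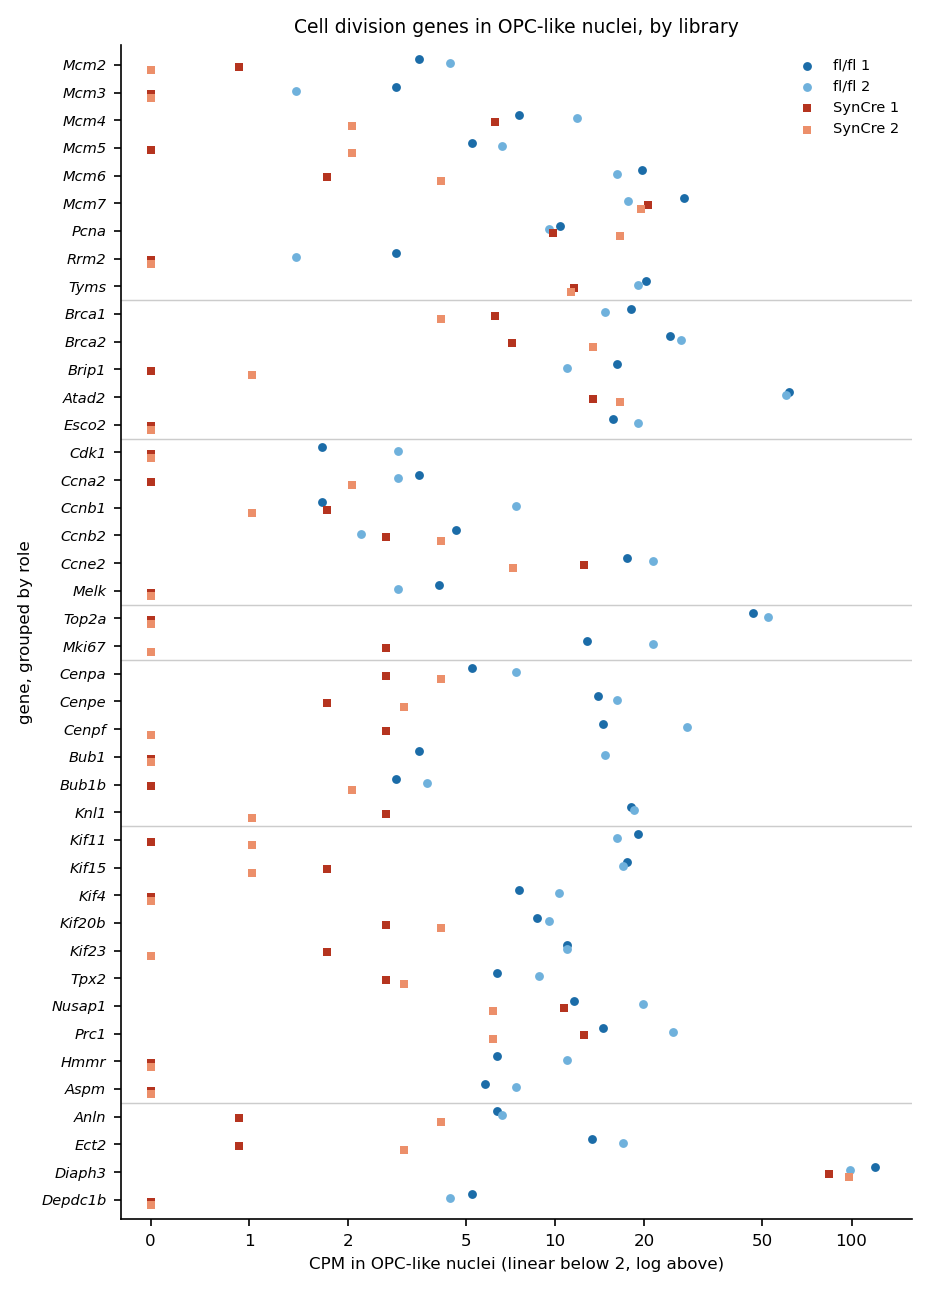
Level of each of the 42 genes in OPC-like nuclei (horizontal axis, CPM, linear below 2 and log above), with 1 point per library and fl/fl in blue and SynCre in red. The SynCre points lie left of both fl/fl points for 38 genes, at 0 for Top2a, and close to the fl/fl points for Diaph3, Mcm7 and Pcna.

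The member UMIs of OPC-like nuclei summed to 639, 684, 225 and 242 CPM. The 26 nuclei with 8 or more members held 612 of 1102 (55.5%) and 539 of 930 (58.0%) of them in the fl/fl libraries. Without these nuclei the sums were 299, 300, 225 and 242 CPM, and those of the 22 mitosis genes went from 237, 313, 49.1 and 39.1 to 53.2, 74.5, 49.1 and 39.1 CPM. As these nuclei were picked by the members themselves, this is a description of where the UMIs lay. Nuclei removed as putative doublets included more with 8 or more members in fl/fl 1 (24) than in the other libraries (5, 3 and 4), and with doublets kept 14 members were called.

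OPC identity was checked on markers. All 6 OPC markers were detected in OPC-like nuclei of every library. Pdgfra, the growth factor receptor of these cells, was at 795, 1138, 962 and 937 CPM and Cspg4, which encodes NG2, at 183, 285, 317 and 263, with overlapping genotypes. Vcan was at 1192, 1192, 702 and 907 CPM and C1ql1 at 120, 138, 111 and 116. Tnr was at 3948, 3954, 3274 and 3459 CPM and Lhfpl3 at 6305, 5318, 5005 and 3914. Vcan, C1ql1, Tnr and Lhfpl3 each lay lower in both SynCre libraries. The 6 together summed to 12543, 12026, 10371 and 9597 CPM, lower in both SynCre libraries. All 7 oligodendrocyte markers were also detected, and their sum was 231 and 179 CPM in fl/fl against 84.8 and 86.4 in SynCre. The 7 immature oligodendrocyte markers summed to 1346, 1494, 1157 and 1185 CPM, and the 6 neuron markers to 594, 582, 493 and 580. The part of these in the genotype difference was not tested. Sel1l itself was at 113 and 92.6 CPM in OPC-like nuclei of fl/fl and 418 and 188 in SynCre. In excitatory neuron-like nuclei it was at 95.8, 89.6, 118 and 108 CPM. Cre UMIs in OPC-like nuclei were 32, 0, 20 and 12, or 18.6, 0, 17.9 and 12.3 CPM. Excitatory neuron-like nuclei had 1.74, 0, 1.62 and 1.58 CPM of Cre, so its level was higher in OPC-like nuclei in each library with Cre UMIs. Whether Cre acted in OPC-like nuclei was not tested.

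Genes of the same pathway outside the 42 were read from lists. These lists, and that of entry and exit genes below, were also chosen with earlier results of these data known. They come from the same 4 libraries and are not an independent check. Of 40 other S phase genes, 10 were called lower in OPC-like nuclei without the filter and none higher, 39 had a fitted change below 0, and the median log2 change was -1.11. Of all genes in that fit, 1.22% were called lower and 1.30% higher, and 51.5% had a fitted change below 0. With the filter, 8 of 19 were called lower, where 1.42% of all genes were. Pola1, of the DNA polymerase alpha and primase complex, had 214, 151, 61 and 70 UMIs, Wdhd1, which links that complex to the helicase, 55, 51, 9 and 13, and the checkpoint mediator gene Clspn 22, 25, 2 and 1. Of 60 other mitosis genes, 8 were called lower without the filter and none higher, and with it 4 of 14 were called lower. Without the filter, 58 had a change below 0, and the median was -2.06. Both condensin core genes were among these 8, Smc2 with 86, 57, 17 and 13 UMIs and Smc4 with 52, 39, 6 and 13.

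Of 23 genes of cell cycle entry and exit, 2 were called higher and 1 lower in SynCre OPC-like nuclei without the filter. Of all genes, 1.30% were called higher and 1.22% lower in that fit. With the filter, 2 of 21 were called higher and 0 lower, where 2.00% of all genes were called higher and 1.42% lower. Ccnd2, which encodes the growth factor-responsive cyclin D2, had 30, 22, 74 and 47 UMIs (log2 change 1.78 ± 0.27, adjusted p 6.46e-05, edgeR). Cdkn1a, which encodes the cyclin-dependent kinase inhibitor p21, had 2, 1, 13 and 12 UMIs (log2 change 3.50 ± 0.70, adjusted p 0.00192, edgeR). Both were higher in both SynCre libraries. The Ccnd2 call was kept in 12 of 12 alternatives and that of Cdkn1a in 7 of 11, with an adjusted p of 0.0941 in DESeq2 for Cdkn1a and of up to 0.143. Rbl1, of the retinoblastoma family, had 58, 36, 18 and 12 UMIs and was called lower only without the filter (adjusted p 0.0329). Ccnd1, another D cyclin gene, had 109, 128, 80 and 45 UMIs with overlapping levels.

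Outside OPC-like nuclei no member was called with the filter. In that fit, edgeR's quasi-likelihood test called 0 members in each of 8 further classes. Numbers tested, passing an unadjusted p under 0.05, and the share of all genes called were 10, 1 and 0.846% in oligodendrocyte-like, 7, 1 and 0.979% in astrocyte-like, 12, 0 and 0.0840% in microglia-like, and 1, 0 and 0.227% in neuroblast-like nuclei. They were 21, 3 and 0% in the Top2a/Dlx1-led cluster, 15, 0 and 3.74% in dentate gyrus (DG)-like, 38, 7 and 0.113% in excitatory neuron-like, and 21, 4 and 1.20% in inhibitory neuron-like nuclei. The unadjusted p was under 0.05 for 1242 of 11466 genes in oligodendrocyte-like and 1236 of 10516 in astrocyte-like nuclei. Microglia-like nuclei had 883 of 10713 and neuroblast-like nuclei 367 of 4849 such genes. The Top2a/Dlx1-led cluster had 161 of 3276 and DG-like nuclei 2163 of 13063. Excitatory neuron-like nuclei had 2232 of 19425 and inhibitory neuron-like nuclei 2197 of 15252. Without the filter, edgeR called 1 member in oligodendrocyte-like nuclei (Depdc1b, where 2.25% of all genes were called), 2 in excitatory neuron-like nuclei (Cenpa and Atad2, 1.83%), 1 in inhibitory neuron-like nuclei (Bub1b, 2.33%) and 0 in the others, against 20 in OPC-like nuclei. DESeq2 called 1 member in oligodendrocyte-like nuclei (Depdc1b, 0.994% of all genes), 2 in excitatory neuron-like nuclei (Cenpa and Atad2, 1.69%) and 0 in the others. Immature oligodendrocyte-like nuclei, at 110, 67, 10 and 20 per library, were too few in SynCre for a test.

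In the Top2a/Dlx1-led cluster, where most members were highest, Top2a and Mki67 together were at 455, 758, 856 and 506 CPM, the kinetochore genes at 645, 697, 938 and 524, and the spindle genes at 720, 1442, 1356 and 809. In each the genotypes overlapped. The genotype effect in OPC-like nuclei was set against that in this cluster in 1 fit with library as a block, and the difference was called for 4 of 39 members tested, Top2a, Esco2, Knl1 and Kif11, all more negative in OPC-like nuclei, where 0.0564% of all genes were called in that direction and 0.0846% in either. Against microglia-like nuclei it was called for 6 of 25 (Top2a, Mki67, Cenpf, Kif15, Kif11 and Atad2), where 0.205% of genes were called in that direction and 0.868% in either. For the remaining members the difference between classes did not pass the threshold, and it was not tested against other classes.

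Microglia-like nuclei with 8 or more members numbered 0, 1, 1 and 3. The deepest counts were Mcm7 with 46, 29, 27 and 40 UMIs, Atad2 with 46, 25, 21 and 26, and Pcna with 18, 19, 15 and 11. Cenpf had 8, 21, 21 and 10, Mcm3 22, 13, 10 and 10, Tyms 16, 14, 10 and 13, Brca2 15, 18, 12 and 3, and Mcm6 15, 11, 11 and 7 UMIs. None of these was called between genotypes. By group, Top2a and Mki67 summed to 3.06, 9.45, 15.5 and 17.1 CPM and the replication genes to 77.7, 76.5, 85.0 and 128 CPM. The kinetochore genes summed to 17.1, 40.4, 45.3 and 44.0 CPM and the cortex and cytokinesis genes to 16.5, 18.9, 22.1 and 22.7 CPM. These sums were higher in both SynCre libraries, without a test. The sums of the S phase repair group (41.6, 43.8, 39.7 and 56.8 CPM), the cyclins and kinases (11.6, 23.2, 22.1 and 12.8) and the spindle genes (22.6, 43.8, 32.0 and 46.9) overlapped between genotypes.

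Astrocyte-like nuclei had no nucleus with 8 or more members. Diaph3 had 69, 36, 221 and 52 UMIs there (log2 change 0.65, adjusted p 0.32, edgeR), and was called when SynCre 2 was left out. Atad2 had 23, 14, 29 and 7 UMIs, Mcm7 16, 9, 29 and 19, Anln 10, 3, 28 and 10, and Ccne2 11, 8, 20 and 10. Nusap1 had 6, 9, 22 and 9, Brca2 11, 5, 24 and 5, and Pcna 6, 7, 17 and 11 UMIs. Library SynCre 1 held 587 of the 1329 astrocyte-like nuclei, and its counts were the highest for all 8 genes.

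Neuroblast-like nuclei, 98, 37, 83 and 42 in number, held almost no Top2a or Mki67 UMIs. Top2a had 0 UMIs in all 4 libraries and Mki67 0, 0, 1 and 0. Mcm7 had 31, 12, 24 and 20 UMIs and Atad2 10, 5, 10 and 7, while Nusap1 had 4, 5, 6 and 3, Pcna 4, 5, 6 and 2, and Brca2 1, 5, 5 and 3. Tyms (5, 3, 5 and 0), Ccne2 (2, 1, 4 and 2) and Mcm4 (3, 2, 3 and 1) had the next most. The kinetochore genes summed to 5.68, 7.10, 21.5 and 6.52 CPM and the spindle genes to 42.6, 78.1, 50.1 and 52.1 CPM. No nucleus of this class held 8 or more members. These values depend on how the clusters were split. Without integration, the neuroblast-like class also took in 158 of the 204 nuclei of the Top2a/Dlx1-led cluster.

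Classes were also compared with each other, with library as a block. Against oligodendrocyte-like nuclei, 6 of 10 members tested differed (55.2% of all genes did, 30.2% higher in OPC-like nuclei), with Atad2 (log2 difference 2.85), Tyms (2.81), Diaph3 (1.21) and Brca2 (1.14) higher in OPC-like nuclei and Anln (-6.59 ± 0.25) and Depdc1b (-3.41 ± 0.33) lower. Without the filter 30 of 42 differed, 28 of them higher, where 34.9% of all genes differed. Against astrocyte-like nuclei, 4 of 9 were called (46.6% of all genes), Prc1 (1.30 ± 0.33), Tyms (1.21 ± 0.31), Atad2 (1.14 ± 0.27) and Diaph3 (0.51 ± 0.20), all higher in OPC-like nuclei, and without the filter 23 of 42 (28.8% of all genes), 22 of them higher. Against microglia-like nuclei, 5 of 11 were called (63.0% of all genes), with Diaph3 (3.72 ± 0.23), Prc1 (1.85 ± 0.49), Ccne2 (1.18 ± 0.35) and Brca2 (1.06 ± 0.33) higher in OPC-like nuclei and Mcm3 (-2.86 ± 0.55) lower, and without the filter 21 of 42 (41.3% of all genes), 20 of them higher. The shares called with the filter were near those of all genes.

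In neuroblast-like against DG-like nuclei (granule neurons of the dentate gyrus), 4 of 14 members were called (38.8% of all genes), and 5 of 41 without the filter (20.7% of all genes). Mcm7 (log2 difference 3.0 ± 0.27) and Kif20b (2.45 ± 0.71) were higher in neuroblast-like nuclei, and Mki67 (-4.17 ± 0.84) and Mcm6 (-1.32 ± 0.49) were higher in DG-like nuclei. Mcm6 was at 19.1, 16.4, 15.6 and 17.8 CPM in DG-like nuclei, so it was even across the mice. The direction of Mki67 and Mcm6 turned where classes were named without integration, and the neuroblast-like class then held 158 nuclei of the Top2a/Dlx1-led cluster.

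Mki67 and Top2a parted in neurons. A Mki67 UMI was found in 279 of 2294 DG-like nuclei (12.2%, and 9.13, 15.8, 11.7 and 14.3% by library), at 11.9, 23.7, 17.7 and 19.0 CPM. Only 2 of these 279 nuclei (0.717%) also had a Top2a UMI, while 15 of 29 Mki67 nuclei did in the OPC-like class (51.7%). The DG-like nuclei with Mki67 held a mean of 1.24 other members against 0.948 in those without, and OPC-like nuclei with Mki67 held 11.7 against 1.0. In excitatory neuron-like nuclei 3.16% had a Mki67 UMI at a median depth of 11108 UMIs over the class. In inhibitory neuron-like nuclei 0.877% did at 9091 UMIs, and the median of the DG-like class was 7391.5. Within each neuron class, nuclei with a Mki67 UMI had the higher median depth. It was 8796 UMIs against 7228 in those without in DG-like, 13893 against 11033.5 in excitatory and 11062 against 9088.5 in inhibitory neuron-like nuclei. The part of depth in these shares and in the means of other members was not tested. The genotypes overlapped in the DG-like share.

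**Figure D5:**
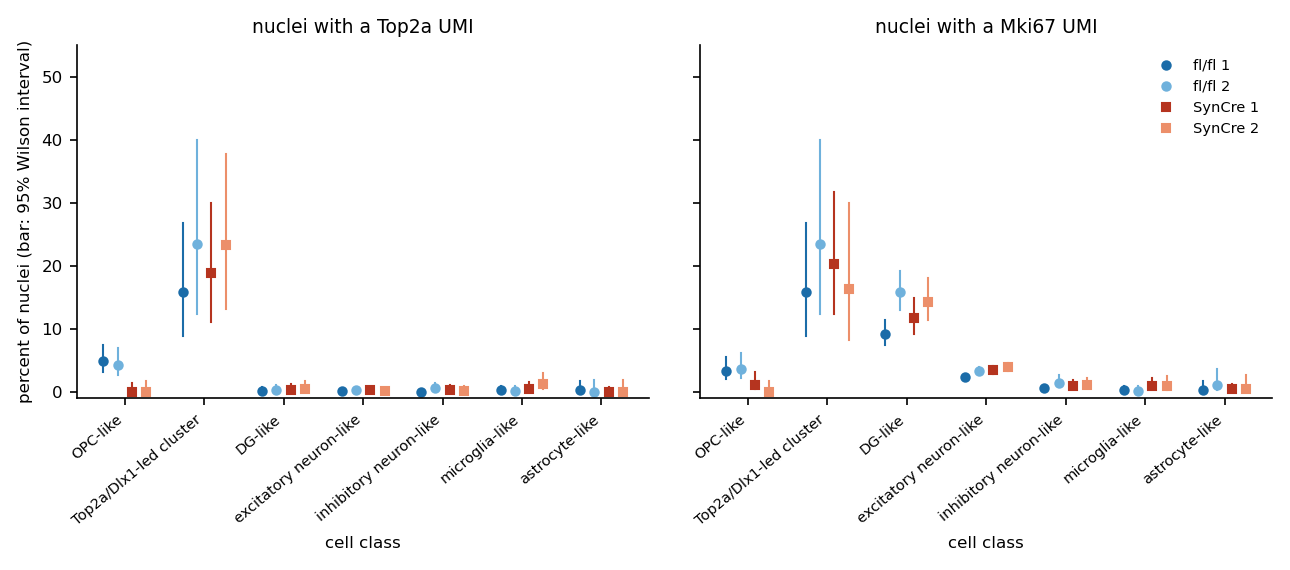
Percent of nuclei with at least 1 UMI of Top2a (left) and of Mki67 (right) in 7 classes, with 1 point per library and bars for the 95% Wilson interval. Top2a is at 4.80 and 4.23% in fl/fl and at 0 in both SynCre libraries of OPC-like nuclei, and Mki67 reaches 9.13 to 15.8% in DG-like nuclei, where Top2a is near 0.

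By share of nuclei, Top2a was detected in 4.80% (3.09 to 7.37%) and 4.23% (2.58 to 6.85%) of fl/fl OPC-like nuclei and in 0% (up to 1.38 and 1.66% by the Wilson interval) of SynCre ones. Mki67 was detected in 3.28, 3.66, 1.09 and 0%. In inhibitory neuron-like nuclei, which should not divide and were deeper, 0.212% had a Top2a UMI. In the Top2a/Dlx1-led cluster, at a median of 2225.5 UMIs, Top2a was detected in 15.9, 23.5, 18.8 and 23.3% and Mki67 in 15.9, 23.5, 20.3 and 16.3% of nuclei. In that cluster, both genes were thus present in all 4 libraries.

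Depdc1b was the member nearest the threshold outside OPC-like nuclei. In oligodendrocyte-like nuclei it had 328, 107, 15 and 14 UMIs, or 48.4, 30.7, 13.5 and 13.6 CPM, with a log2 change of -1.58 ± 0.32 (adjusted p 0.0535 in edgeR's quasi-likelihood test, 0.0484 in DESeq2). Without the filter it was called (adjusted p 2.55e-06, edgeR), as it was with classes named without integration (adjusted p 0.0226, edgeR). At least 10 counts in every library also gave a call (adjusted p 0.0472, edgeR). So did the replicate number as a block (adjusted p 1.01e-05, edgeR), but the numbers share only a label, and 5.18% of all genes were called there. No member was called in this class with scaling by DESeq2 size factors, with doublets kept or with more than 200 genes per nucleus. Both SynCre levels were lower. Oligodendrocyte-like nuclei numbered 1847, 1174, 357 and 365 and came from 2 clusters in unlike shares, with 895, 369, 17 and 53 of them in the cluster whose first leading gene was Hapln2. In the other cluster, with 952, 805, 340 and 312 nuclei, Depdc1b was at 55, 35.3, 13.9 and 15.1 CPM, lower in both SynCre libraries as well. Anln, the other member with its UMIs in this class, was not lower in SynCre at 421, 370, 496 and 517 CPM. In excitatory neuron-like nuclei, the log2 change was 2.05 ± 0.35 for Cenpa (adjusted p 0.0917) and -0.57 for Atad2 (adjusted p 0.121), and neither passed edgeR's threshold with the filter. Without it both did (adjusted p 0.00213 and 0.011, edgeR), and Cenpa also did with the replicate number as a block (adjusted p 0.037, edgeR).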

How the data were processed

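Nuclei of 4 mice were profiled with 10x Genomics 3′ chemistry. The authors aligned the reads and counted UMIs with Cell Ranger 6.1.0 on GRCm38 (submitters' processing notes) and deposited raw UMI counts per gene and barcode. Whether introns were counted, and the strand used, are not given in the sources used here. The 42 genes and the lists were chosen with earlier results of these data known, and each library's group came from its label.

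From the deposited counts, nuclei with more than 600 genes and under 5% mitochondrial UMIs were kept, and the 426 to 1246 nuclei per library with the highest Scrublet scores were left out, a share that grew with the number of nuclei. Nuclei were clustered in Seurat 5.3.0 (canonical correlation integration, 2000 features, 17 dimensions, without the members and 123 other listed genes) and clusters were named from markers. A cluster was named only with at least 3 markers detected, and one led by members was left unnamed. The rule for ties between classes was set after seeing the data. Counts were summed per library and class and tested in edgeR 4.0.16 (TMM, filterByExpr, two-sided quasi-likelihood test, Benjamini-Hochberg over all genes tested) where every library held at least 20 nuclei. Contrasts between classes had library as a block. DESeq2 1.42.0 was an alternative, as were other filters, scalings, naming without integration (Leiden in scanpy 1.11.5), kept doublets and each library left out. The fits for the Top2a/Dlx1-led cluster, the differences of effects between classes, and the counts of 5 or 8 members per nucleus were added after seeing the data. Shares have 95% Wilson intervals.

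Depth was 66167019 to 100984599 UMIs per library over kept nuclei, of which 10573 to 17276 were member UMIs, so single members rested on few counts in rare classes. On data simulated from the OPC-like means with a log2 change of 2, 185 of 193 changed genes were recovered, and 14 unchanged genes were called. All genes had a common dispersion and the changed ones were drawn at random, so recovery of members with few counts was not measured. For the difference of effects at a log2 change of 3, 159 of 198 were recovered against microglia-like nuclei. Against the Top2a/Dlx1-led cluster 106 of 194 were. Named were the 8 members with the most UMIs in OPC-, astrocyte-, microglia- and neuroblast-like nuclei, members past an adjusted p of 0.05 between genotypes, and per contrast of classes the 5 largest changes each way with at least 20 counts. Others are given as counts or were chosen after their values were seen (Cdk1, Mki67 in neurons, Cenpa, Depdc1b, and examples from the lists).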

Additional observations from a re-analysis of the deposited data

Results flagged for a closer look

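The genotype effect (SynCre against fl/fl, log2) differed between OPC-like nuclei and another class for 10 pairs of gene and class, by the test of the difference itself in edgeR's quasi-likelihood fit with library as a block and Benjamini-Hochberg adjustment. Each value is the effect in OPC-like nuclei minus that in the other class, and each was negative. Against microglia-like nuclei, the difference was -9.64 for Top2a (adjusted p 0.000513), -6.31 for Mki67 (0.00457), -6.02 for Kif11 (0.0488), -4.60 for Cenpf (0.00316), -4.19 for Kif15 (0.0248) and -2.26 for Atad2 (0.00343). Against the Top2a/Dlx1-led cluster, it was -8.61 for Top2a (adjusted p 1.15e-05), -7.52 for Esco2 (0.0039), -5.13 for Kif11 (0.0386) and -4.26 for Knl1 (0.0111). Except for Atad2, these genes had 0 to 4 UMIs over both SynCre libraries of OPC-like nuclei, so the sizes depend on the prior count. These differences were chosen for testing after the OPC-like result was seen.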

How the results depend on the processing

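In OPC-like nuclei, 14 members and 383 genes were called between genotypes. Leaving out 1 library at a time gave 9 to 15 members and 261 to 573 genes (10 members without fl/fl 1, 9 without fl/fl 2, 11 without SynCre 1 and 15 without SynCre 2), DESeq2 4 members and 149 genes, and at least 10 counts in every library 1 member, a filter that leaves out genes near 0 in SynCre. Top2a, Esco2, Cenpf and Atad2 kept their calls in all alternatives that tested them, and DESeq2 gave adjusted p of 1.89e-05, 0.00412, 0.0203 and 0.000372 for them. Brca2 was still called in 5 of 11, and DESeq2 gave 0.606.

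The replicate number as a block (replicate block) gave 15 members in OPC-like nuclei, 1 against 0 in oligodendrocyte-like and in excitatory neuron-like nuclei, and 594 against 97 genes in oligodendrocyte-like, 351 against 103 in astrocyte-like, 157 against 9 in microglia-like, 46 against 11 in neuroblast-like and 145 against 22 in excitatory neuron-like nuclei. The numbers share only a label. Deviations of same-numbered libraries correlated at 0.106 to 0.215 over the classes.

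In the other classes, where 0 members were called, the count of members went to 1 in oligodendrocyte-like nuclei with at least 10 counts in every library, DESeq2, no filter or no integration, to 2 in excitatory neuron-like nuclei with DESeq2 or no filter, and to 1 in inhibitory neuron-like nuclei with no filter or no integration. Without 1 library it ranged from 0 to 1 in astrocyte-like nuclei and the Top2a/Dlx1-led cluster and in excitatory neuron-like nuclei, and from 0 to 2 in inhibitory neuron-like nuclei. No other class than the OPC-like one had over 2 members called.

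For genes of all kinds, DESeq2 gave 60 in astrocyte-like (against 103), 268 in DG-like (488), 328 in excitatory (22) and 330 in inhibitory neuron-like nuclei (183). Scaling by DESeq2 size factors gave 34 in excitatory neuron-like nuclei. Without the filter, 472 were called in oligodendrocyte-like, 320 in astrocyte-like, 271 in microglia-like, 25 in neuroblast-like, 870 in DG-like, 490 in excitatory and 566 in inhibitory neuron-like nuclei and 9 in the Top2a/Dlx1-led cluster (0). With at least 10 counts in every library, 5 were called in microglia-like and 31 in neuroblast-like nuclei. With doublets kept, 12 were called in oligodendrocyte-like and 4 in neuroblast-like nuclei, and with more than 200 genes per nucleus 17 in neuroblast-like nuclei. Without integration, 5 were called in microglia-like, 1 in neuroblast-like, 36 in excitatory and 588 in inhibitory neuron-like nuclei. Leaving out 1 library at a time gave 0 to 223 genes in oligodendrocyte-like, 123 to 208 in astrocyte-like, 0 to 414 in microglia-like, 0 to 32 in neuroblast-like, 204 to 691 in DG-like, 42 to 328 in excitatory and 30 to 1667 in inhibitory neuron-like nuclei, and 5 to 32 in the Top2a/Dlx1-led cluster.

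Between classes, the members called in OPC-like against astrocyte-like nuclei (4) were 23 without the filter, 1 with at least 10 counts in every pseudobulk, 5 without integration and 2 to 5 without 1 library. Against microglia-like nuclei (5) they were 21, 2 and, without 1 library, 3 to 11, with 4179 genes against 7275 at 10 counts. Against oligodendrocyte-like nuclei (6) they were 30 without the filter and 1 at 10 counts, with 3882 genes against 6030. In neuroblast-like against DG-like nuclei (4) they were 1 at 10 counts (1632 genes against 4555), 1 with thinned pseudobulks (2056 genes) and 30 without integration, where Mki67 was at 0.99 (adjusted p 0.00294) against -4.17 and Mcm6 at 0.57 (adjusted p 0.0631) against -1.32, as that class of 444 nuclei held 258 of the 260 neuroblast-like nuclei and 158 of the 204 of the Top2a/Dlx1-led cluster.

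The difference in the share of nuclei with 2 or more members (SynCre minus fl/fl, percentage points) was -6.93 in OPC-like nuclei, -4.20 for the 22 mitosis genes and -3.46 for 8 or more members without thinning. In astrocyte-like nuclei it was 1.24, and -1.0 for the mitosis genes, -0.659 for 3 or more members, -0.400 for 5 or more and 0 for 8 or more without thinning, and 2.71 at 4000 UMIs. In microglia-like nuclei it was 1.80, and 4.64 for 1 or more, 0.845 for 3 or more, 0.610 for 5 or more and 0.464 for 8 or more, and 12.3 at 4000 UMIs. In neuroblast-like nuclei it was 0.863, and -6.59 without thinning and -4.64 at 4000 UMIs. In the Top2a/Dlx1-led cluster it was 0.538, and -11.7 for 1 or more, -5.82 without thinning and -8.33 at 4000 UMIs, and no value could be had without integration. The cause of these moves was not tested. Of 827 values of named genes over alternatives, 54 lost the call, 1 gained it and 2 reversed with a call in the main fit or the alternative. The other 770 were counted as the same. That label also covers a change of sign where neither fit passed the threshold. Fits at a fixed dispersion with 1 library left out gave no p, so only direction could be compared in them. Depth limits rare classes most, since OPC-like nuclei held 7 Cdk1 UMIs in all.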

Other observations

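Genes of cell cycle entry and exit outside the 42 were also read in other classes (values as TMM-scaled CPM, edgeR's quasi-likelihood test, Benjamini-Hochberg adjusted p). Cdkn1a was at 0.749, 0.292, 9.33 and 44.2 in oligodendrocyte-like nuclei (log2 change 5.41 ± 0.77, adjusted p 0.0166), whose 2 clusters were mixed in unlike shares by genotype (895, 369, 17 and 53 nuclei in the smaller one), and at 1.30, 0.724, 5.20 and 5.07 in inhibitory neuron-like nuclei (2.25 ± 0.39, 0.0452). In the larger oligodendrocyte-like cluster alone it was at 0.917, 0, 9.25 and 42.1 unscaled CPM. Ccnd2 was at 73.4, 62.7, 107 and 111 in DG-like nuclei (0.67 ± 0.12, 0.00713) and at 46.0, 42.8, 68.9 and 74.5 in inhibitory neuron-like nuclei (0.69 ± 0.11, 0.0373). Ccnd3, the third D cyclin gene, was at 103, 175, 330 and 405 in astrocyte-like nuclei (1.42 ± 0.23, 0.00643) and at 695, 850, 1315 and 1668 in microglia-like nuclei (0.95, 0.0763). The last of these did not pass the threshold, and in all 6 cases both SynCre libraries lay above both fl/fl libraries.

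The 11 excitatory neuron-like nuclei with 8 or more members had a median of 25280 UMIs against 11108 over the class, and 5 had a Top2a UMI. The leading genes of the Ttr/Tnc-led cluster included the choroid plexus gene Ttr and the neural progenitor marker Thbs4. In this cluster 5 of 7 neural progenitor markers (Egfr, Hes5, Sox2, Hopx and Thbs4) passed the share and level used in naming. There, 3, 1, 3 and 0 nuclei held 8 or more members, and all 7 had a Top2a UMI. Among kept nuclei with 8 or more members and at least 3 OPC markers, 15, 14, 1 and 0 were counted, and among those removed as putative doublets 15, 4, 2 and 1.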
